A study of Homo sapiens with 12 samples.

Results

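The m6A peaks of 2 oral squamous cell carcinoma (OSCC) cell lines, HSC3 and CAL33, were compared after both had received 100 nM rapamycin for 3 days. Peaks of the HSC3 list were set against peaks of the CAL33 list, and a peak was called shared when its exonic blocks overlapped a peak of the other list on the same strand by at least 1 bp. The HSC3 list held 3952 peaks on 2978 genes and the CAL33 list held 3079 peaks on 2401 genes, which together made 7031 of the 14586 peaks and 4189 of the 6163 marked genes of the series. The study was designed to relate m6A to autophagy in OSCC, and its peaks came from methylated RNA immunoprecipitation sequencing (MeRIP-seq), in which fragments bound by an anti-m6A antibody are sequenced beside an input of the same RNA. Each line and treatment had 1 immunoprecipitated library and 1 input library, and the same lines without rapamycin served as controls (3930 peaks in HSC3 and 3625 in CAL33). HSC3 and CAL33 are established human lines from tongue carcinomas. Each list rests on a single pair of libraries, so line and library cannot be told apart, and no test between lines was made. Levels of mRNA came from 2 RNA-seq libraries of rapamycin-treated cells, number 1 with 18492273 counts and number 2 with 18763045 counts, and 2 control libraries with 21653290 and 23763098 counts. The labels place both rapamycin RNA-seq libraries in HSC3 and both control ones in CAL33, whereas in MeRIP-seq number 1 is HSC3 and number 2 is CAL33. The RNA-seq libraries are therefore called by number, and which line each one is was not tested. The intervals given for shares are 95% Wilson intervals that cover counting error only.

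N6-methyladenosine is placed on nascent mRNA by a complex in which METTL3 is the catalytic subunit, METTL14 supports RNA binding and WTAP, VIRMA, ZC3H13, RBM15 and CBLL1 guide it. FTO and ALKBH5 remove the mark, and proteins with a YTH domain read it, with YTHDF2 best known for sending marked mRNA to decay. The mark sits mainly in long internal exons and around the stop codon, often in a GGAC core, and rapamycin, which binds FKBP12 and inhibits mTOR complex 1, relieves the brake that this kinase complex puts on autophagy.

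The sequence under a peak was read at transcript starts, where RefSeq (GRCh38.p14) windows hold the first 50 transcribed bases. In HSC3, 25 peaks covered at least 20 of these bases, and 2 of them were shared (8.0%, 2.22 to 25.0). In CAL33, 21 peaks did so, and 2 of them were shared (9.52%, 2.65 to 28.9). The letters GGAC, searched on the transcribed strand, were found in the first 50 bases at 8 of the HSC3 and 3 of the CAL33 start peaks, none of them shared, against 18.8% of 27305 RefSeq start windows. They lay inside the peak at 7 of the HSC3 and all 3 of the CAL33 start peaks. Windows of 30 bases are printed for 4 of these line-only peaks, 2 from each line, with GGAC in capitals, to show what such a start site looks like. The HSC3 examples lie in *ABTB2*, a BTB-domain protein, and *LIG3*, a DNA ligase of base excision repair. The CAL33 examples lie in *GLG1*, a Golgi glycoprotein, and *PPP1R3D*, a subunit that targets protein phosphatase 1 to glycogen.
ABTB2, chr11:34357961-34357990, minus strand: ttctcgccggctggtcccGGACtcgcgctg
LIG3, chr17:34980512-34980541, plus strand: gctctaGGACccggatttaaagagacaggc
GLG1, chr16:74607085-74607114, minus strand: gagctcgccgcGGACtcaagatggcggcgt
PPP1R3D, chr20:59940269-59940298, minus strand: taagtaacgccgcGGACcgggaaagtggga
The peak over the *ABTB2* start had a fold enrichment (immunoprecipitated RNA over input, as deposited) of 194, and the peak over the *LIG3* start had 12.3. The peak over the *GLG1* start stood at percentile 58.6 of the CAL33 list, and the peak over the *PPP1R3D* start had a fold of 493 (percentile 98.8). None of these 4 peaks was found in either control list.

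Most peaks were listed in one line and not in the other. Of the HSC3 peaks, 900 (22.8%, 21.5 to 24.1) were shared and 3052 were HSC3-only. Of the CAL33 peaks, 900 (29.2%, 27.7 to 30.9) were shared and 2179 were CAL33-only. The same number of peaks makes a larger share of the shorter list, and when the 3079 peaks with the highest fold enrichment were taken from each list, 23.4% of the CAL33 peaks were shared. For comparison, 28.4% of all HSC3 peaks overlapped a peak of the HSC3 control list and 26.9% one of the CAL33 control list. Of all CAL33 peaks, 29.9% overlapped a peak of the CAL33 control list and 28.2% one of the HSC3 control list. The lists differ in length, so these shares and those of shared peaks are not on 1 scale. Shared peaks formed 1012 overlapping pairs with a median overlap of 180 bp. Of the pairs, 93.9% had the same region class in both lists, but only 32 pairs had identical ends. A peak listed under several overlapping genes was counted once for each. At the edge of the rule, *ABCC1*, a drug efflux pump, and *ARID1B*, a subunit of the BAF remodelling complex, had pairs that met at 1 bp, and 39 pairs overlapped by 20 bp or less. Just outside it, the *ASXL1* peaks of the lines lay 29 bp apart, and 101 of the 907 HSC3-only peaks whose gene also had a CAL33 peak lay within 100 bp of it on the genome, while the median distance was 837 bp.

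Several genes stood near the top of both lists. Fold enrichment was ranked within each list and is given as a percentile of that list, because the lists differ in size and scale. *TSPYL1*, a nucleosome assembly protein homologue, had a 3′ UTR peak with a fold enrichment of 405 in HSC3 and 983 in CAL33 (percentiles 98.2 and 99.9). *KDM6B*, an H3K27 demethylase, had a coding sequence (CDS) peak at 324 in HSC3 and 689 in CAL33 (97.3 and 99.3). *RLF*, a zinc finger protein, had a CDS peak at 1210 in HSC3 and 260 in CAL33 (99.8 and 95.5). These peaks were strong in both lines, although the order of the folds differed from gene to gene. *SDC1*, the cell surface proteoglycan syndecan-1, had a 3′ UTR peak at 241 in HSC3 and 270 in CAL33, and the pair shared 630 bp. *JUN*, an AP-1 subunit, had a 3′ UTR peak at 231 in HSC3 and 421 in CAL33, and the pair shared 511 bp. Both were also in the control list of their own line, as were *TSPYL1*, *RLF* and *PWWP2B*, whereas *KDM6B* and the mitochondrial kinase gene *NADK2* were in neither line's own control list. The other pairs with the highest smaller percentile were in *MED7*, a Mediator subunit, *PCNX1* and *ELP3*, the catalytic subunit of Elongator, with percentiles from 94.5 to 99.3.

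Over all pairs, rank in one line said little about rank in the other. The Spearman rho of fold enrichment was 0.19 across the 1012 pairs, which come from the same library pairs and are not independent, and 54 of which were given to different genes in the lists. The percentiles lay within 10 points of each other in 250 pairs (24.7%) and over 50 points apart in 215 (21.2%), and the pairs split into 513 higher in HSC3 and 499 higher in CAL33. The pairs furthest apart included *AFF1*, a subunit of the super elongation complex, with a CDS peak at a fold of 5.47 in HSC3 and 710 in CAL33. Its mRNA stood at 88.5 and 92.2 CPM (read counts scaled to the library total) in the rapamycin RNA-seq libraries number 1 and number 2. *ZCCHC3*, a co-sensor of nucleic acids, was the reverse case, with a CDS peak at 1420 in HSC3 and 1.86 in CAL33 at 42.8 and 29.0 CPM. *USP24*, a deubiquitinase, had 355 in HSC3 and 1.72 in CAL33, and *CDC42EP1*, a CDC42 effector, had 344 and 4.57. *INHBA*, the inhibin beta A subunit that forms activin A, had a 3′ UTR peak at 4.57 in HSC3 and 362 in CAL33, and its mRNA stood at 748 CPM in number 1 and 0.0533 CPM in number 2.

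**Figure D1:**
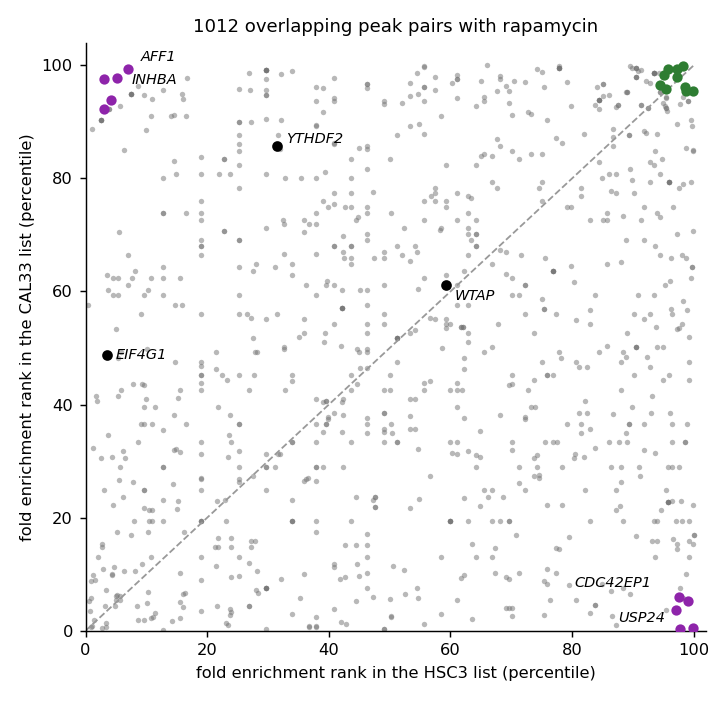
Fold enrichment rank of the 1012 overlapping pairs, as percentile in the HSC3 list (x axis) and in the CAL33 list (y axis), both with rapamycin. Each grey point is 1 pair and the dashed line marks equal rank. Green points are the 10 pairs highest in both lists, and purple points 5 of the pairs furthest apart in each direction. Black points are *EIF4G1*, *WTAP* and *YTHDF2*. The points fill the whole square, as the rho of 0.19 describes.

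Shared and line-only peaks lay in much the same parts of transcripts. In HSC3, 45.1% of shared peaks (41.9 to 48.4) and 40.3% of HSC3-only peaks (38.5 to 42.0) were in the CDS, while 33.7% (30.7 to 36.8) and 36.3% (34.6 to 38.1) were in the 3′ UTR. In CAL33, 43.4% of shared peaks (40.2 to 46.7) and 40.0% of CAL33-only peaks (38.0 to 42.1) were in the CDS, while 34.8% (31.7 to 37.9) and 38.2% (36.2 to 40.2) were in the 3′ UTR. Both lines thus had a somewhat larger CDS share among shared peaks, and the intervals touched or overlapped in each case. The 5′ UTR held 2.33% of shared and 3.41% of HSC3-only peaks, and 2.78% of shared and 4.22% of CAL33-only peaks. Median percentiles of fold enrichment were close, at 53.4 for shared and 49.0 for HSC3-only peaks in HSC3, and 49.3 and 50.4 in CAL33. Shared peaks differed more in their deposited p-values, with a median log10 p of -28.9 against -14.4 in HSC3 and -23.8 against -15.1 in CAL33, and in length, with a median of 240 against 210 bp in both lines.

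By gene, 1190 were marked in both lines, 1788 in HSC3 only and 1211 in CAL33 only. Of 15232 genes with at least 1 CPM in either rapamycin RNA-seq library, 7.43% were marked in both, 10.6% in HSC3 only and 7.18% in CAL33 only, 25.2% in all. Among the 8472 genes with at least 10 CPM in both libraries the shares were 11.7%, 13.0% and 8.81%, or 33.5% in all. Of the 1190 genes marked in both, 782 had peaks at overlapping positions and 408 only elsewhere in the gene. Of these 408, 337 could be compared by their highest peaks with a false discovery rate of at most 0.05, and 60.5% had them in the same region class. *MMP2*, a matrix metalloproteinase, had 3′ UTR peaks 210 bp apart at 306 in HSC3 and 193 in CAL33. *NSD1*, an H3K36 methyltransferase, had CDS peaks 239 bp apart at 495 in HSC3 and 162 in CAL33. *ZBTB41* had a 3′ UTR peak at 178 in HSC3 and a CDS peak at 469 in CAL33, 2575 bp apart on the genome. *GDF11*, a TGF-beta family ligand, and *TULP4* had theirs 210 and 90 bp apart.

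Among the genes the study measured, *EIF4G1*, the scaffold subunit of the eIF4F cap-binding complex, was marked in both lines, but its peaks barely met. In HSC3 a CDS peak at chr3:184321405-184321614 had a fold enrichment of 3.79 (percentile 3.52), and a 3′ UTR peak had 32.5. In CAL33 a single CDS peak at chr3:184321614-184321943 had 33.9 (percentile 48.7), and it overlapped the HSC3 peak by 1 bp. Without rapamycin the CDS peak spanned chr3:184321584-184321973 in HSC3, at a fold of 4.32, and chr3:184321614-184321853 in CAL33, at 9.63. The rule therefore counts *EIF4G1* as shared on its edge, and under an overlap of 50% of the shorter peak it is not shared. *WTAP* had a 5′ UTR peak with the same ends in both lines, chr6:159726512-159726751, at 46.5 in HSC3 and 53.6 in CAL33. *YTHDF2* had overlapping CDS peaks over 569 bp, at 17.2 in HSC3 and 126 in CAL33. *FTO* had a CDS peak in CAL33 only (26.8), which was also in the CAL33 control list, and *MAP1LC3B*, which encodes the autophagosome protein LC3B, had a 3′ UTR peak in HSC3 only (18.4). *METTL3*, *METTL14*, *ALKBH5*, *YTHDC2*, *EIF4A1*, *MTOR* and *GAPDH* had no peak in either rapamycin list.

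The counts of marked genes in 19 lists of genes by function are described next, each against 7.43%, 10.6% and 7.18% of genes at 1 CPM or more. Where a gene had several peaks in a list, the highest fold enrichment is given, so the values of a gene in both lines can come from different positions. The counts carry no test, and their members include long and well-transcribed genes, whose part in the counts was not tested.

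Of 11 genes for writer subunits, 5 were marked in both lines, *CBLL1* was marked in HSC3 only, and the other 5, *METTL3* and *METTL14* among them, were not marked. With 3079 peaks from each list, 4 were marked in both, 0 in HSC3 only and 1 in CAL33 only. *RBM15*, which recruits the complex to RNA, carried 4 peaks in each line, with the highest at 194 in HSC3 and 69.7 in CAL33. *VIRMA* had a CDS peak at 7.42 in HSC3 and 56.3 in CAL33. Of 16 eraser and reader genes, 5 were marked in both lines, *IGF2BP3* and *HNRNPC* in HSC3 only, and *FTO* and *YTHDC1* in CAL33 only. *YTHDF3* reached 62.9 in HSC3 and 397 in CAL33, and *IGF2BP2*, a reader that stabilizes mRNA, had nearly equal 3′ UTR peaks at 242 in HSC3 and 226 in CAL33. *YTHDF1* was marked at other positions, in the 3′ UTR at 21.9 in HSC3 and in the CDS at 260 in CAL33.

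**Figure D2:**
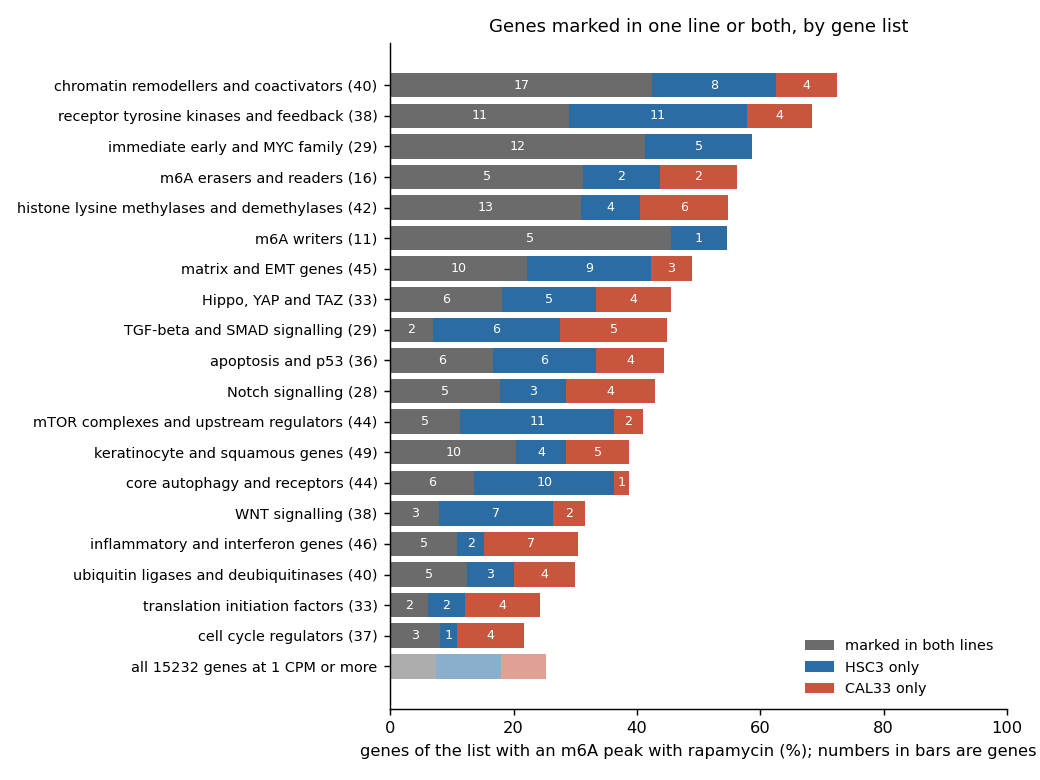
Share of the genes of each list (with at least 1 CPM in either rapamycin RNA-seq library, number in parentheses) that had an m6A peak with rapamycin in both lines, in HSC3 only or in CAL33 only; numbers in the bars are genes, and the pale bar at the bottom is all 15232 genes. Chromatin remodellers had the highest marked share (29 of 40 genes) and cell cycle regulators the lowest (8 of 37).

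In the mTOR and autophagy lists more genes were HSC3-only than CAL33-only. Of 44 genes for mTOR complexes and their upstream regulators, 5 were marked in both lines, 11 in HSC3 only and 2 in CAL33 only. The HSC3-only genes included *RPTOR* and *RICTOR*, which define mTOR complexes 1 and 2, at 13.7 and 11.1, *TSC1* at 16.4, *FLCN*, a GTPase-activating protein for RagC, at 170, and *PDPK1*, the kinase that activates AKT, at 309. *AKT2* was marked in CAL33 only, at 336, and *AKT1* in HSC3 only, at 115. *IRS2* and *IRS1*, adaptors of the insulin receptor, were marked in both, *IRS2* at 271 in HSC3 and 110 in CAL33 and *IRS1* at 73.8 and 413. At overlapping positions *IRS2* had 20.5 in HSC3 and 40.2 in CAL33, and the *IRS1* peak of 73.8 in HSC3 met one of 45.6 in CAL33. The mRNA of *RPTOR*, *RICTOR*, *TSC1* and *PDPK1* differed by less than 2-fold between number 1 and number 2, at 96.5 and 73.5, 75.2 and 65.8, 37.2 and 29.2, and 61.0 and 67.8 CPM.

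Of 44 core autophagy genes and receptors, 6 were marked in both lines, 10 in HSC3 only and 1, *PIK3R4*, in CAL33 only. The HSC3-only genes held 3 of the ATG4 proteases that process LC3, with *ATG4A* at 342, *ATG4B* at 107 and *ATG4D* at 10.9, and also *ATG2B*, a lipid transfer protein, at 156 and *ATG12* at 11.6. *ULK1*, the initiating kinase, was marked at an overlapping 3′ UTR position with its highest peaks at 51.9 in HSC3 and 17.9 in CAL33. *RB1CC1*, its partner FIP200, had 8.62 in HSC3 and 24.1 in CAL33, and *AMBRA1* had 35.5 and 69.7. *ATG14* and *WIPI2* were marked in both lines at other positions. With the 3079 peaks of highest fold enrichment from each list, 6 autophagy genes were HSC3-only and 2 CAL33-only.

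In the lists of chromatin regulators, more genes were marked in both lines than in a single line, but not when only overlapping positions were counted. The difference was not tested. Of 40 remodellers and coactivators, 17 were marked in both (10 at overlapping positions), 8 in HSC3 only and 4 in CAL33 only. *EP300*, an acetyltransferase, had its highest peak at 290 in HSC3 and 85.7 in CAL33, whereas its paralogue *CREBBP* had 4 peaks in CAL33, up to 279, and none in HSC3. *CHD9* and *CHD7*, CHD-family helicases, had CDS peaks at 172 and 323 in HSC3 and 450 and 75.0 in CAL33. The HSC3 peak of *CHD9* that overlapped the CAL33 one had 17.8. Of 42 histone lysine methylases and demethylases, 13 were marked in both (7 at overlapping positions), 4 in HSC3 only and 6 in CAL33 only. *KMT2D* and *KMT2A*, H3K4 methyltransferases, had 48.5 and 10.9 in HSC3 and 48.2 and 137 in CAL33. At the overlapping position *KMT2A* had 6.38 in HSC3 and 2.49 in CAL33. *KDM5B*, an H3K4 demethylase, was marked in CAL33 only at 118, and *KMT2B* in HSC3 only at 108.

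Immediate early and MYC family genes had no CAL33-only member: 12 of 29 were marked in both lines, 5 in HSC3 only and 12 in neither. *IER5*, an early response gene, reached 1550 in HSC3 and 121 in CAL33, and *JUNB* reached 290 and 60.2. *MYC* had an overlapping 3′ UTR peak at 99.5 in HSC3 and 54.3 in CAL33. *EGR1* and *KLF2*, zinc finger factors, were marked in HSC3 only at 16.1 and 112, and their mRNA stood at 456 and 13.7 CPM in number 1 against 155 and 2.19 CPM in number 2. With a false discovery rate of at most 0.05, 1 gene of the list was CAL33-only.

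Of 38 receptor tyrosine kinases, ligands and feedback regulators, 11 were marked in both lines, 11 in HSC3 only and 4 in CAL33 only. *EGFR* was marked in both at the 3′ UTR, with highest peaks at 61.5 in HSC3 and 132 in CAL33, and its mRNA stood at 15287 CPM in number 1 and 427 CPM in number 2. *DUSP6* and *DUSP4*, phosphatases that switch off ERK, were marked in HSC3 only, at 127 and 161, and their mRNA was higher in number 1, at 93.3 and 147 against 22.6 and 41.8 CPM. *SPRY2*, *SPRY4*, *TGFA* and *HBEGF* were likewise HSC3-only and higher in number 1. *SPRY1*, another inhibitor of ERK signalling, was the counterpart, marked in CAL33 only at 5.26 with 2.54 CPM in number 1 and 28.1 in number 2. *AXL*, a receptor for GAS6, went the other way, marked in CAL33 only at 8.04 with 1063 CPM in number 1 and 9.22 in number 2.

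The epithelial genes *CDH1* (E-cadherin) and *EPCAM* were present in both rapamycin libraries, at 313 and 224 CPM in number 1 and 215 and 153 in number 2. The basal squamous genes *KRT5* and *TP63* stood at 6.27 and 13.9 CPM in number 1 and 317 and 343 in number 2, and the mesenchymal *VIM* stood at 396 and 4.80. *KRT14*, a further basal keratin, stood at 0 and 1.23 CPM. The same order held in the control libraries, where *KRT5* stood at 34.2 in number 1 and 1696 in number 2, and *VIM* at 544 and 6.69.

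Of 49 keratinocyte and squamous genes, 10 were marked in both lines, 4 in HSC3 only and 5 in CAL33 only, and with 3079 peaks from each list these counts were 6, 3 and 9. *SOX2*, a squamous lineage factor, had 3 peaks in CAL33, up to 182, and none in HSC3, with 0.0541 CPM in number 1 and 147 in number 2. *PAX9* was marked in CAL33 only at 252, with 9.08 and 46.2 CPM. *PITX1*, an oral epithelial homeobox factor, had 3 peaks in each line, up to 465 in HSC3 and 125 in CAL33, with 35.4 and 206 CPM. *DSG3*, a desmosomal cadherin, was marked in HSC3 only at 213, with 37.5 and 85.4 CPM, so the mark did not always lie with the higher mRNA. *KRT7* was marked in CAL33 only, at 16.1, with 1589 CPM in number 1 and 37.4 in number 2.

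Of 45 matrix and epithelial-mesenchymal transition genes, 10 were marked in both, 9 in HSC3 only and 3 in CAL33 only. The order turned with 3079 peaks from each list, where 4 were marked in both, 6 in HSC3 only and 9 in CAL33 only. *TNC*, the matrix protein tenascin C, had a CDS peak in HSC3 only at 729 and was also marked in the HSC3 control, with 370 CPM in number 1 and 4.48 in number 2. *COL1A1* had its highest peaks at 812 in HSC3 and 598 in CAL33, with 30.2 and 27.6 CPM, but at different positions, and the HSC3 peak that overlapped the CAL33 one had 16.4 (percentile 29.7). *FN1*, fibronectin, had 1 peak in HSC3, at 10.9, and 6 in CAL33, up to 359, of which the one that overlapped the HSC3 peak had 8.04, while its mRNA stood at 15243 CPM in number 1 and 41.4 in number 2. *VIM* was marked in CAL33 only, at 45.6.

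The lists of TGF-beta, WNT, Notch and Hippo genes each held members marked in both lines, in HSC3 only and in CAL33 only. Of 29 TGF-beta and SMAD genes, 2 were marked in both, 6 in HSC3 only and 5 in CAL33 only. The receptor-activated SMADs *SMAD3* and *SMAD5* were CAL33-only, at 114 and 169, while the ligand gene *TGFB1* was HSC3-only at 112 and the inhibitor *SMAD7* at 24.6. *TGIF2*, a SMAD corepressor, was marked in both at 364 in HSC3 and 201 in CAL33. Of 38 WNT genes, 3 were marked in both, 7 in HSC3 only and 2 in CAL33 only. The Frizzled receptor genes *FZD7*, *FZD3* and *FZD2* were HSC3-only, at 413, 101 and 60.2, while the receptor *FZD6* and the co-receptor *LRP6* were CAL33-only, at 17.1 and 188. Of 28 Notch genes, 5 were marked in both, 3 in HSC3 only and 4 in CAL33 only. The ligand *JAG1* was marked in both at 172 in HSC3 and 144 in CAL33, the ligand *JAG2* was CAL33-only at 740, and among receptors *NOTCH2* was marked in both, *NOTCH3* in HSC3 only at 30.1 and *NOTCH1* in CAL33 only at 10.7. Of 33 Hippo genes, 6 were marked in both, 5 in HSC3 only and 4 in CAL33 only. The kinases *LATS1* and *LATS2* were HSC3-only, at 14.1 and 30.1, and the YAP target *CCN2* (*CTGF* in the files) was CAL33-only at 828 with 76.2 CPM in number 1 and 3.09 in number 2. *FAT2*, an atypical cadherin, had 4 CAL33 peaks up to 217 and 6 in the CAL33 control, with 1.57 CPM in number 1 and 457 in number 2.

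Cell cycle genes were marked about as often as all genes. Of 37, 3 were marked in both lines, *E2F2* in HSC3 only and 4 in CAL33 only. *CDKN1A*, the inhibitor p21, was CAL33-only at 721. *CDKN2B*, the inhibitor p15, was marked in both, with highest peaks at 172 in HSC3 and 91.1 in CAL33. At the overlapping position the HSC3 peak of *CDKN2B* had 51.9 and the CAL33 peak 91.1. Of 36 apoptosis and p53 genes, 6 were marked in both, 6 in HSC3 only and 4 in CAL33 only. *MDM2*, the ligase for p53, and *TNFRSF10A*, a TRAIL receptor, were HSC3-only at 309 and 227, and *BIRC2*, the inhibitor cIAP1, was CAL33-only at 102. Of 46 inflammatory and interferon genes, 5 were marked in both, 2 in HSC3 only (1 with 3079 peaks from each list) and 7 in CAL33 only. The interferon-induced *IFIT1*, *IFIT2* and *IFIT3* were all CAL33-only, at 13.9, 61.0 and 63.0, and all were also in the CAL33 control list. Their mRNA stood at 2.54, 6.22 and 5.03 CPM in number 1 and 115, 333 and 211 in number 2. *SOCS3* and *SOCS5*, suppressors of cytokine signalling, were CAL33-only at 145 and 512, without such an mRNA gap (37.9 and 81.0, and 18.5 and 12.8 CPM).

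Of 33 translation initiation genes, 2 were marked in both lines, *EIF4G1* and *EIF3A*, with 2 in HSC3 only and 4 in CAL33 only. With 3079 peaks from each list these counts were 1, 1 and 5. The paralogues *EIF4G2* and *EIF4G3* were CAL33-only, at 3.03 and 16.7. Of 40 ubiquitin ligases and deubiquitinases, 5 were marked in both, 3 in HSC3 only and 4 in CAL33 only, and 3, 2 and 6 with 3079 peaks from each list. *RNF168*, a ligase of the DNA damage response, had 273 in HSC3 and 196 in CAL33, while *FBXW7*, which targets MYC and cyclin E, had 86.4 and 6.32. *KEAP1*, the adaptor that degrades NRF2, was CAL33-only at 58.9.

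Genes marked in one line tended to have more mRNA in the library of the same number, although most differed little. Over genes with at least 1 CPM in either rapamycin library, the median log2 ratio of number 1 to number 2 was 0.36 for the 1609 HSC3-only genes, -0.26 for the 1094 CAL33-only genes, 0.02 for the 1131 genes marked in both and 0.11 for all 15232 genes. Of the HSC3-only genes, 210 (13.1%) were over 4-fold higher in number 1 and 22 (1.37%) over 4-fold higher in number 2. Of the CAL33-only genes, 40 (3.66%) were over 4-fold higher in number 1 and 126 (11.5%) over 4-fold higher in number 2. For all genes the shares were 9.05% and 5.54%, and genes marked in both lines were under them on either side, at 2.92% and 3.71%. A gene below 1 CPM in both libraries could still be listed, as 179 HSC3-only, 117 CAL33-only and 59 genes marked in both were. Such a listing need not be a mark on that gene, because peaks can be listed under several overlapping genes. *PTPRCAP* and *CORO1B*, for example, had the same folds of 260 in HSC3 and 99.1 in CAL33. How many genes this covers was not counted. In these bulk lysates fewer cells with a transcript and less of it per cell cannot be told apart.

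**Figure D3:**
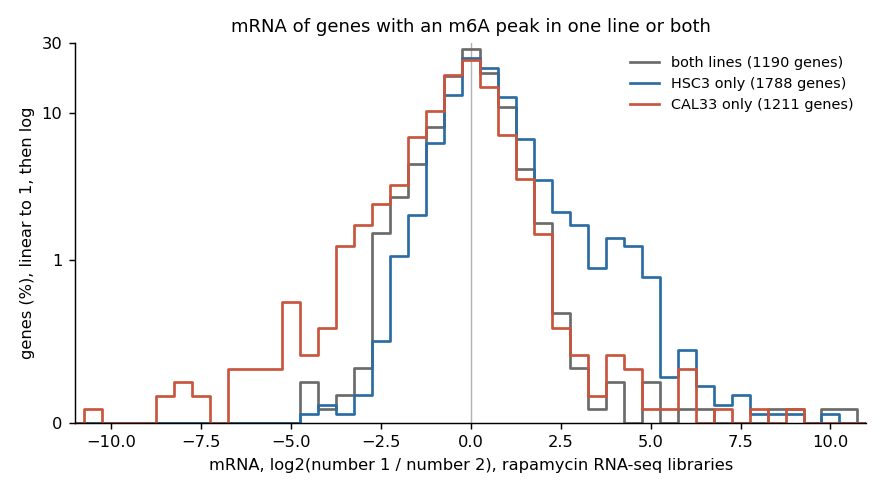
Distribution of the log2 ratio of CPM in number 1 to number 2 (rapamycin RNA-seq libraries, x axis, bins of 0.5) for all genes marked in both lines, in HSC3 only and in CAL33 only, those under 1 CPM included; the y axis is the percent of genes in each class, linear up to 1 and logarithmic above. HSC3-only genes extend further to the right and CAL33-only genes further to the left, while all 3 classes have their peak near 0.

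Fold enrichment also moved with the count of the gene. CPM is not corrected for transcript length, so it stands here for reads available, not for transcript number. In HSC3, peaks of genes over 100 CPM in number 1 had a median fold of 20.5, and peaks of genes at 1 to 10 CPM had 51.0. In CAL33, peaks of genes over 100 CPM in number 2 had a median fold of 22.1, and peaks of genes at 1 to 10 CPM had 55.0. Sharing ran the other way, with 27.1% of the peaks over 100 CPM and 14.1% of those at 1 to 10 CPM shared in HSC3, and 34.6% and 21.0% in CAL33. Peaks of genes under 1 CPM did not continue either trend, with a median fold of 32.8 and 20.9% shared in HSC3, and 45.6 and 24.3% in CAL33. Spearman rho of fold with CPM in the library of the same number was -0.18 over 3952 HSC3 peaks and -0.208 over 3079 CAL33 peaks, which share libraries. With CPM in the library of the other number it was much the same, at -0.154 for HSC3 and -0.15 for CAL33. Between lines, however, the difference in percentile of a pair hardly followed the mRNA ratio (rho -0.0581 over 958 pairs). In the 18 pairs with number 1 over 4-fold higher, 12 were ranked higher in CAL33, and in the 46 pairs with number 2 over 4-fold higher, 26 were ranked higher in HSC3.

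The control lists were used to ask whether peaks listed in one line only were found again in the same line without rapamycin, and whether this was more frequent than in the other line. HSC3-only peaks overlapped a peak of the HSC3 control list in 21.0% of cases (19.6 to 22.5) and one of the CAL33 control list in 19.0% (17.7 to 20.4). CAL33-only peaks overlapped the CAL33 control list in 20.0% (18.3 to 21.7) and the HSC3 control list in 18.1% (16.6 to 19.8). In each line the intervals overlapped, but they take no account of the same peaks being looked up in both control lists. Peak by peak, 419 HSC3-only peaks were in the own control list alone and 359 in the other alone, and 269 and 229 CAL33-only peaks were so. Shared peaks were found far more often. From the HSC3 side 53.7% were in each control list taken separately, and from the CAL33 side 53.9% were in the own and 52.6% in the other. Neither control list held 67.3% of the HSC3-only and 69.5% of the CAL33-only peaks, and 325 HSC3 peaks overlapped a peak in all of the other 3 lists. In the upper quartile by strength of the p-value, HSC3-only peaks were found in 32.2% in the own and 27.3% in the other control list, and CAL33-only peaks in 31.1% and 26.0%.

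**Figure D4:**
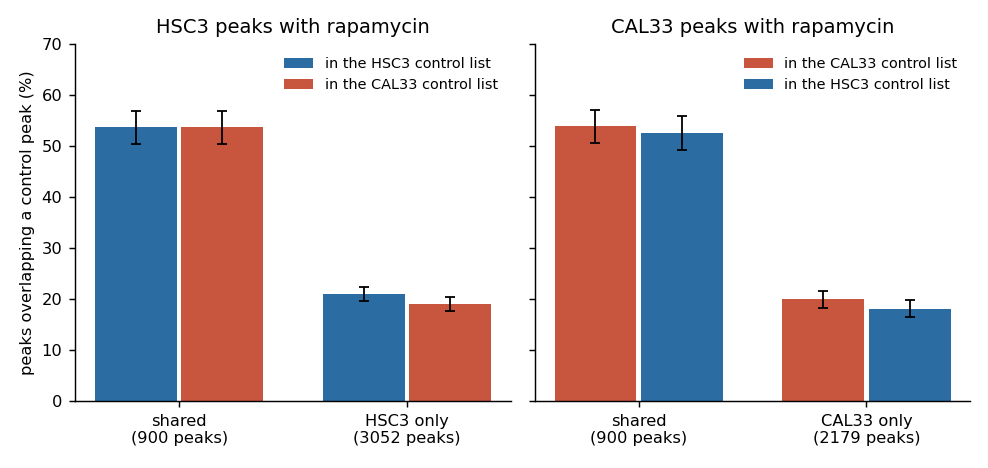
Percent of rapamycin peaks that overlapped a peak of the HSC3 control list (blue) or of the CAL33 control list (red), for shared and line-only peaks of HSC3 (left) and CAL33 (right); bars start at 0 and error bars are 95% Wilson intervals. Line-only peaks reached 18.1% to 21.0% in each control list taken separately, and shared peaks 52.6% to 53.9%.

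The own control list was ahead where the mRNA was over 4-fold higher in the library of the same number. Among 310 HSC3-only peaks of genes over 4-fold higher in number 1, 20.6% (16.5 to 25.5) were in the HSC3 control list and 6.77% (4.47 to 10.1) in the CAL33 control list. Among 204 CAL33-only peaks of genes over 4-fold higher in number 2, 32.4% (26.3 to 39.0) were in the CAL33 control list and 13.7% (9.67 to 19.1) in the HSC3 control list. These intervals did not overlap, but they cover counting error only and take no account of the same peaks being looked up in both control lists. A gene with little mRNA offers few reads for a peak, so these bins by themselves limit what the other list can hold. Peak and mRNA level cannot be told apart here. Where the library of the same number was 2- to 4-fold higher, the own and the other control list held 25.2% (21.2 to 29.7) and 21.0% (17.3 to 25.3) of the HSC3-only peaks, and 22.1% (17.5 to 27.5) and 16.0% (12.1 to 21.0) of the CAL33-only peaks, with overlapping intervals. For genes within 2-fold the shares were 21.3% and 20.0% over 2119 HSC3-only peaks, and 18.8% and 19.5% over 1490 CAL33-only peaks, in the own and the other control list, and the intervals overlapped. In 45 HSC3-only peaks of genes over 4-fold higher in number 2, 6.67% (2.29 to 17.9) were in the HSC3 and 22.2% (12.5 to 36.3) in the CAL33 control list. In 74 CAL33-only peaks of genes over 4-fold higher in number 1, 10.8% (5.58 to 19.9) were in the CAL33 and 9.46% (4.66 to 18.3) in the HSC3 control list. In both of these small sets the intervals overlapped. The order turned in 178 HSC3-only peaks of genes 2- to 4-fold higher in number 2, with 11.2% (7.39 to 16.7) in the HSC3 and 23.6% (18.0 to 30.3) in the CAL33 control list, while in the CAL33-only peaks of genes 2- to 4-fold higher in number 1 the shares were 15.4% (10.5 to 22.1) in the CAL33 and 18.8% (13.3 to 25.8) in the HSC3 control list. *TNC*, *SOX2*, *FAT2* and the *IFIT* genes are among the genes over 4-fold apart, and *ATG4B* and *BAHD1* are examples of line-only marks at nearly equal mRNA.

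**Figure D5:**
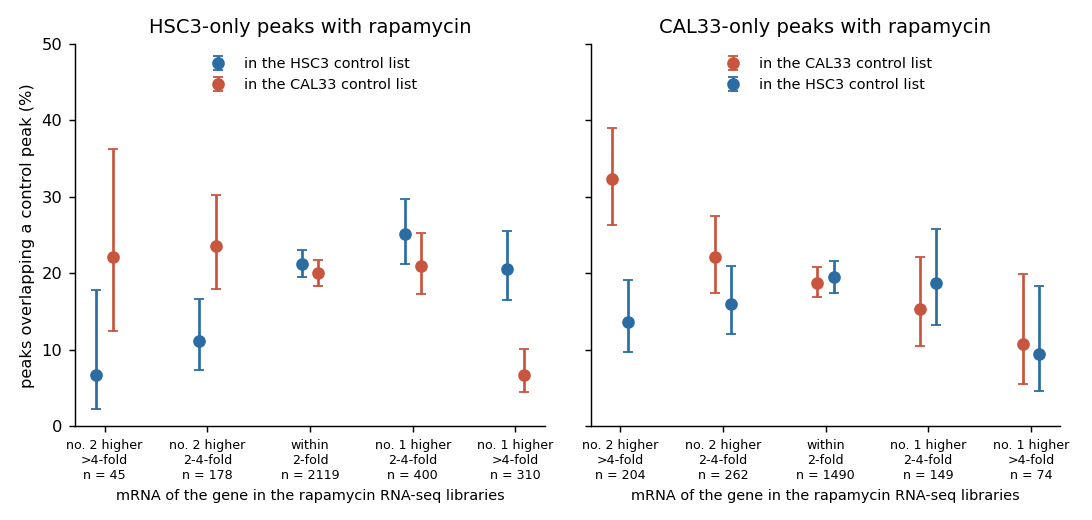
Percent of HSC3-only peaks (left) and CAL33-only peaks (right) that overlapped a peak of the HSC3 control list (blue) or the CAL33 control list (red), by the ratio of the gene's mRNA between the rapamycin RNA-seq libraries number 1 and number 2; points are shares, bars 95% Wilson intervals, n the peaks in each bin. The intervals of the own and the other control list separate where mRNA was over 4-fold higher in the library of the same number and, in the opposite order, for HSC3-only peaks of genes 2- to 4-fold higher in number 2, and they overlap in the other bins.

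A smaller set of genes was marked in one line with and without rapamycin, at overlapping positions, and in neither list of the other line. It held 191 genes in HSC3, of which 135 had at least 5 CPM in both rapamycin libraries, and 108 in CAL33, of which 78 did. In HSC3, *FZD7* had a 3′ UTR peak at 413 with and 264 without rapamycin. *PRDM4*, a zinc finger factor, had a CDS peak at 205 and 521, and *SLC1A4*, a neutral amino acid transporter, had an exonic peak at 186 and 1200. *ATG4B* had a 3′ UTR peak at 107 and 314, with 90.0 and 86.5 CPM in number 1 and number 2, and *BAHD1*, a heterochromatin protein, had a CDS peak at 104 and 303, with 51.3 and 49.1 CPM. *TGFB1*, *MECR* and *C5orf42* completed the 8 with the highest smaller percentile. In CAL33, *CCP110*, a centriolar protein, had a CDS peak at 122 with and 528 without rapamycin. *CEP170* and *CEP85L*, also centrosomal, had CDS peaks at 96.5 and 175 and at 107 and 234. *LARP6*, which binds collagen mRNAs, had 102 and 162, and *SOX13* had a 3′ UTR peak at 83.1 and 515. *ZNF33B*, *UGT8* and *NOL7* followed. *CCP110* and *SOX13* had less mRNA in number 1 (19.0 and 44.5 CPM) than in number 2 (46.7 and 114), whereas *NOL7* had 60.5 and 34.9.

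The line-only peaks with the highest fold enrichment came from varied genes. In HSC3 the CDS peaks were led by *HIC2*, a transcriptional repressor, at 1080, which overlapped peaks of both control lists, and by *SETD1B*, an H3K4 methyltransferase, at 971. In the 3′ UTR, *ATF1*, a CREB family factor, had 886 and *FBXL19* had 861, and neither was in a control list. In the 5′ UTR, *DDX6*, an RNA helicase of processing bodies, had 470. Among peaks classed only as exon, the mitochondrial ribosomal RNA gene *MT-RNR1* had 1350, in both control lists, and *ZNF776* had 1200, in neither. In CAL33, *TMEM60* had a CDS peak at 1290, which overlapped peaks of both control lists, ahead of *CCN2* and *JAG2*. In the 3′ UTR, *ETV6*, an ETS repressor, had 1330 and *CELSR1*, a planar polarity cadherin, had 861. In the 5′ UTR, *SHB*, an adaptor protein, had 619 and *PPP1R3D*, whose start sequence is printed above, had 493, and among the exon-class peaks *SORT1*, the sorting receptor sortilin, had 630. Membership in one list thus included peaks found in the controls of both lines and peaks found in neither.

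Some genes differed in the number of peaks. *PLEC*, the cytolinker plectin, had 11 peaks in HSC3 and 5 in CAL33, and the order was reversed in the controls, with 8 in HSC3 and 12 in CAL33. *AHNAK2*, a giant scaffold protein, had 8 in HSC3 and 0 in CAL33, with 4 and 3 in the respective controls. *EPPK1*, epiplakin, had 6 in CAL33 and 0 in HSC3, with 11 in the CAL33 and 1 in the HSC3 control. *TNKS1BP1* had 7 in CAL33 and 5 in HSC3. *CLDN4*, a tight junction claudin, was alike in all lists, with 6 and 5 peaks with rapamycin and 6 and 4 without. *ANKRD11*, a chromatin cofactor, kept its line difference in the controls, with 6 peaks in HSC3 and 2 in CAL33 under either condition. Over all genes, 76.8% of marked HSC3 genes and 79.3% of marked CAL33 genes had a single peak.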

How the data were processed

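MeRIP-seq peaks of HSC3 and CAL33 and RNA-seq counts of OSCC cells, with and without 100 nM rapamycin, were analysed from the values the authors deposited. The deposited MeRIP-seq files are 4 peak lists on hg38, 1 for each pair of immunoprecipitated and input libraries. Each peak has a fold enrichment, which is the deposited ratio of the immunoprecipitate over the input, and the deposited log10 values of its p-value and of its false discovery rate. Peaks were called on each pair separately. The peak caller and its use of strand are not given in the sources used here, and the reads were not analysed here, so the depth behind a peak is unknown. A peak on an antisense gene such as *LINC01137* or *RNF217-AS1* therefore cannot be told apart from one on its partner. For RNA-seq the authors deposited raw counts per gene. The submitters' processing notes name cutadapt 2.5, HISAT2 2.1.0, featureCounts 1.6.3 and HOMER 4.10.4, without their roles.

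Overlaps were taken over exonic blocks on the same strand (at least 1 bp), tested on simulated peaks, and positions are counted from 1. Gene symbols of the lists placed 97.7% to 98.4% of matched peaks inside the RefSeq GRCh38.p14 gene of the same name. Fold enrichment was ranked within each list. Counts were scaled to CPM by the library total, and ratios used a pseudocount of 0.5 CPM. Python 3.11.15 with scipy 1.17.1 was used, and TMM factors for 1 alternative came from edgeR 4.0.16. No test between lines was made, as each list rests on 1 pair of libraries. The alternatives were an overlap of 50% of the shorter peak, peaks with a false discovery rate of at most 0.05, equal numbers of peaks, overlap on the whole span, TMM scaling and a minimum of 5 CPM.

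The comparison, the 19 gene lists (698 genes) and the rules for naming genes were chosen with earlier results of these data known. Genes named were the 10 shared pairs with the highest smaller percentile and 5 of the pairs furthest apart in each direction. The *RBPJ* pair, which met at 1 bp, was not among them. Its percentiles of 98.3 in HSC3 and 5.72 in CAL33 lay further apart than those of *CDC42EP1* (97.6 and 5.89). Also named were 8 genes per line marked with and without rapamycin in that line only, those with the highest smaller percentile. These had at least 5 CPM in both rapamycin libraries. The 5 genes with the most peaks per list, the highest members of each gene list and the genes the study measured were named too. Named as well were the 5 highest genes marked at other positions and the 3 highest line-only peaks per line and region class. Peaks at the edge of the overlap rule completed the names. Further members of the gene lists, the 4 start sequences and the squamous marker genes were chosen after their values were seen. Some items that the rule for named genes would give are not reported here.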

Additional observations from a re-analysis of the deposited data

Results flagged for a closer look

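Of the genes marked in HSC3 only with rapamycin, 269 were marked in CAL33 only without it, and 184 genes marked in CAL33 only with rapamycin were marked in HSC3 only without it. They are given here because the gene was listed in opposite lines with and without rapamycin, and the difference was not tested. *ZBTB14*, a zinc finger factor, had its highest peak at a fold enrichment of 629 in HSC3 with rapamycin and 460 in CAL33 without it, at 19.6 and 11.9 CPM in the rapamycin libraries number 1 and number 2. *SHPK* had 282 in HSC3 with rapamycin and 613 in CAL33 without it. In the other direction, *C5orf30* had 322 in CAL33 with rapamycin and 449 in HSC3 without it, and *LINC01137* had 549 and 331. For comparison, 379 HSC3-only genes were also marked in the HSC3 control list alone, and 196 CAL33-only genes in the CAL33 control list alone. Neither control list held 49.5% of the 1788 HSC3-only and 53.4% of the 1211 CAL33-only genes.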

How the results depend on the processing

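When 50% of the shorter peak had to overlap, shared peaks made 19.5% of the HSC3 and 25.0% of the CAL33 list, HSC3-only peaks were found in 17.5% in the own and 15.4% in the other control list, and CAL33-only peaks in 17.3% and 15.0%. With 3079 peaks from each list, the CAL33 shared share was 23.4%, the median percentile of shared CAL33 peaks 53.6, CAL33-only peaks were found in 22.5% in the own and 20.8% in the other control list, and rho of fold enrichment across pairs was 0.121. Limiting all lists to a false discovery rate of at most 0.05 and overlapping whole spans left the shares of shared peaks, of CDS and 3′ UTR peaks and of all line-only peaks in the control lists within their intervals, and the counts of marked genes within 1.5 times, except that 1 immediate early gene counted as CAL33-only at that false discovery rate. With equal numbers of peaks, 12 of the counts in single gene lists moved by over 1.5 times, and matrix and EMT genes went from more HSC3-only than CAL33-only genes (9 and 3) to fewer (6 and 9). TMM scaling and a minimum of 5 CPM were run on the counts of marked genes with mRNA in both libraries alone and left them within 1.5 times. Shares by mRNA ratio, by p-value and at transcript starts were computed under no alternative. No paired analysis and no test between samples was made, as each line and treatment has 1 pair of libraries. Precision is limited by the unknown depth of the MeRIP-seq libraries and by 1 pair of libraries per line and treatment.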
